A study of Mus musculus with 5 samples.

Results

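Cpne4, Klhl32, Csmd1, Nell2 and Adcy8 are 5 genes whose RNA was higher in myonuclei of Cacna1s KO fetuses than in WT myonuclei of the same age. They were chosen by that difference in summed myonuclear UMIs, as 5 of the 32285 gene rows of the data, so their KO to WT ratios at E18.5 are described here without a test. Results at the other ages and in other classes of nuclei were known when the 5 were put together, so the values there are a description as well. The question was whether these genes were expressed earlier in embryonic muscle or whether their RNA appeared only without the channel.

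Hindlimb skeletal muscle nuclei were profiled by 10x Multiome, a joint assay of RNA and chromatin accessibility (ATAC) in single nuclei. Each of the 5 groups was 1 library. The WT groups were C57bl6n mice of 4 ages, with 56 hindlimbs pooled for E14.5, 14 for E18.5, 8 for P5 and 4 for the adult. The KO group was Cacna1s-/- on the same C57bl6n background at E18.5 (26 hindlimbs). Nuclei were sorted for PCM1, a protein of the myonuclear surface, and positive and negative nuclei were mixed. With 1 pooled library per group there was no replicate check, no p-value could be given, and every interval below covers counting error only.

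The channel gene Cacna1s makes the pore and voltage sensor of the muscle L-type calcium channel. When a motor neuron fires, this subunit opens the ryanodine receptor of the sarcoplasmic reticulum, and calcium release makes the fiber shorten. Fetal muscle that lacks it is paralysed, although its nerves are present. Inactive and denervated muscle is known for switching on genes that innervated fibers keep low. None of the 5 genes is a classical muscle gene. Adcy8 encodes an adenylyl cyclase stimulated by calcium and calmodulin, and Cpne4 a copine, a protein that binds phospholipid membranes when calcium rises. Nell2 encodes a secreted glycoprotein that acts on Robo receptors of growing axons. Csmd1 encodes a very large membrane protein of CUB and sushi domains that restrains complement and is best known from neurons. Klhl32 encodes a Kelch-like protein, a family many of whose members bring substrates to cullin ubiquitin ligases.

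Nuclei were kept at over 400 and under 25000 unique molecular identifiers (UMIs, counted RNA molecules), under 10% mitochondrial UMIs and under 70000 ATAC counts. A kept nucleus was called a myonucleus where Ttn, Neb, Trdn and Ryr1 together made up at least 1.5% of its UMIs, or 4% in the adult. The KO library then had 981 myonuclei, and the WT libraries had 1809 (E14.5), 1563 (E18.5), 1764 (P5) and 4387 (adult). All 12 listed muscle markers were detected in the myonuclei of every library. This does not set the class apart, since Ttn, Neb, Trdn and Ryr1 are among them. All 12 were also detected in the KO Pax7-positive and Pdgfra-positive nuclei described next, and 9 and 10 in those of the adult. Outside the myonuclei, nuclei with a UMI of Pax7, a gene of muscle stem cells, and none of Pdgfra numbered 25 in the adult to 311 in the KO. Nuclei with a UMI of Pdgfra, a gene of mesenchymal progenitors, and none of Pax7 numbered 138 in the adult to 1405 at E18.5. Nuclei with both, 0 in the adult to 70 in the KO, were in neither class. KO myonuclei were read more deeply, with a median of 10200 UMIs against 6971 in WT at E18.5, so shares of positive nuclei are also given after thinning each nucleus to 2000 UMIs. Across libraries 259 barcodes occurred more than once, and the KO matrix held fewer barcodes than the KO nuclei that the study states after its filter. Cacna1s itself was at 8 UMIs in the KO myonuclei and at 2371 in the WT myonuclei at E18.5, which matched the labels.

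The sequences below are promoters and accessible windows at the 5 genes, and whether they regulate the genes was not tested. RefSeq promoters on GRCm38.p6 (250 bases before to 50 after a start) were at hand for Cpne4 and Klhl32 among the 5 genes. A further Cpne4 promoter, at chr9:104587808-104588107, overlapped no called peak in any library and is not shown. For Csmd1, Nell2 and Adcy8 the middle 300 bases of the KO peak with the most ATAC counts in myonuclei are shown from the plus strand. Capitals mark the letters CANNTG, the E-box that myogenic bHLH factors such as Myogenin can bind, and CANNTG was found by reading both strands.
Cpne4 promoter, chr9:104569405-104569704, plus strand: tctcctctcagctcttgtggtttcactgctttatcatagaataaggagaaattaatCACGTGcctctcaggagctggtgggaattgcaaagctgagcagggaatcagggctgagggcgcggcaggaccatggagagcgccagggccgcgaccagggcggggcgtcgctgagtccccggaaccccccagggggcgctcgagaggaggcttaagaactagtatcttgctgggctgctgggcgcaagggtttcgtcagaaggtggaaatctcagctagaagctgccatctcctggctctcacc
Klhl32 promoter, chr4:24851075-24851374, minus strand: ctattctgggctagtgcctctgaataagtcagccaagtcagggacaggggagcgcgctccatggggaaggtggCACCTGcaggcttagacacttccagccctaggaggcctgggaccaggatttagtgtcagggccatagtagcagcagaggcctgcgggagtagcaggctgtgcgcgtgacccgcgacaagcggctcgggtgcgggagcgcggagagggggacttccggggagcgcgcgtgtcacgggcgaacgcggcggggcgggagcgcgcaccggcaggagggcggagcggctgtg
Csmd1 intron, chr8:16051573-16051872: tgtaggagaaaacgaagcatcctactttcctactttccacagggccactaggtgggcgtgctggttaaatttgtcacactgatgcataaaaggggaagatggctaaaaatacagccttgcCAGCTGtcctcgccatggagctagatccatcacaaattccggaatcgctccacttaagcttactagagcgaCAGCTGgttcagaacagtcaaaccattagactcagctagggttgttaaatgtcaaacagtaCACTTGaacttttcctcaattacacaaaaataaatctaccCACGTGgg
Nell2 upstream region, chr15:95536809-95537108: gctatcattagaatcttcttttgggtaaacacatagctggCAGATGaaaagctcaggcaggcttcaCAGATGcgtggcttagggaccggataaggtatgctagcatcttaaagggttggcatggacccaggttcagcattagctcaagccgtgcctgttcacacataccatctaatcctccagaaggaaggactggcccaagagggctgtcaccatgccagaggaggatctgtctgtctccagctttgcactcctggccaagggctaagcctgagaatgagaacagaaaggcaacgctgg
Adcy8 downstream region, chr15:64687188-64687487: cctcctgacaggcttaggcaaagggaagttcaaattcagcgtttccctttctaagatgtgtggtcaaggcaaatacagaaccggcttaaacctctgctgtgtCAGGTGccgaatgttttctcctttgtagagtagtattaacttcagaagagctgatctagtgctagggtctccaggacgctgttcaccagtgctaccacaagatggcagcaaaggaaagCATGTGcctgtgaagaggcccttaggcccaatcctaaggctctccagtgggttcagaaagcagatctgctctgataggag
The Cpne4 promoter shown held 1 E-box, CACGTG, and the Klhl32 promoter held 1, CACCTG. An E-box occurred in 72.3% of the 32851 RefSeq promoters. The Csmd1 window held 4 E-boxes, and the Nell2 and Adcy8 windows held 2 each. Of the middle 300 bases of 61824 KO peaks, 81.2% held CANNTG, so these matches are a description of the letters. The Tead letters CATTCC, the MEF2 motif and the cyclic AMP response letters TGACGTCA were in none of the 5 windows, whereas CATTCC occurred in 18.9%, MEF2 in 4.36% and TGACGTCA in 1.17% of the KO peak windows.

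All 5 genes were more than 5-fold higher in KO than in WT myonuclei at E18.5, as counts per-million of all myonuclear UMIs (CPM). Of the 11511 genes whose UMIs in both sums came to 100 or more, 407 (3.54%) were at least 2-fold higher and 457 (3.97%) at least 2-fold lower in the KO, the contrast by which the 5 were chosen. The WT stages split the genes. Csmd1 and Adcy8 each differed by less than 2-fold between E14.5 and KO myonuclei and were lower in WT at E18.5. Nell2, Klhl32 and Cpne4 were higher in the KO than in any WT library.

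Csmd1 was an embryonic gene of WT muscle. Its UMIs numbered 2091 in E14.5 myonuclei, 177 in those of WT E18.5, 181 (P5), 71 (adult) and 1750 (KO). In the same order the CPM were 215 (206 to 224), 14.1 (12.1 to 16.4), 14.6 (12.6 to 16.9), 3.61 (2.82 to 4.55) and 159.9 (153 to 168). The E14.5 and KO libraries were both high and the others low, and no intervals of the first pair overlapped those of the rest. The KO level was 11.3-fold (9.69 to 13.3) that of WT at E18.5 and 0.745-fold (0.699 to 0.794) that of E14.5. A UMI of Csmd1 was found in 20.2% of myonuclei at E14.5, 4.86% at E18.5 and 15.8% in the KO. After thinning the shares were 13.1%, 1.63% and 8.95%, so fewer KO than E14.5 myonuclei carried it at equal depth.

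Adcy8 was low in WT at E18.5 and in the adult, and higher at E14.5, at P5 and in the KO. E14.5 myonuclei held 102 UMIs, those of WT E18.5 14, of P5 111, of the adult 11 and of the KO 119. The CPM were 10.5 (8.54 to 12.7), 1.12 (0.611 to 1.88), 8.96 (7.37 to 10.8), 0.559 (0.279 to 1.00) and 10.9 (9.01 to 13.0). The E14.5, P5 and KO intervals overlapped one another, and the E18.5 and adult intervals lay below them. The KO was 9.73-fold (5.57 to 18.3) above WT at E18.5 and 1.04-fold (0.791 to 1.37) the E14.5 level. The first ratio was 5.88 with no filter on nuclei, 5.92 with a muscle share limit of 3% and 14.99 without barcodes found in more than 1 library. The share of positive myonuclei was 4.79% in the KO, 3.26% (E14.5), 0.512% (E18.5), 2.55% (P5) and 0.251% (adult).

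Nell2 showed no such embryonic level in myonuclei. It had 499 UMIs in the KO, and 51 (E14.5), 66 (E18.5), 59 (P5) and 13 (adult) in WT. From E14.5 to the adult and then the KO the CPM were 5.24 (3.90 to 6.88), 5.27 (4.08 to 6.71), 4.76 (3.63 to 6.14), 0.661 (0.352 to 1.13) and 45.6 (41.7 to 49.8). The first 3 WT stages could not be told apart by their intervals, the adult was lower, and the KO lay above all of them. The KO to WT ratio was 8.65 (6.68 to 11.4) at E18.5, and the KO was 8.71-fold (6.52 to 11.9) above E14.5. Nell2 was detected in 11.5% of KO myonuclei against 3.20% in WT at E18.5, and in 4.99% against 0.976% after thinning.

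Klhl32 was also highest in the KO, over a smaller range. The KO had 272 UMIs, and the WT libraries had 78 (E14.5), 58 (E18.5), 78 (P5) and 45 (adult). In age order, with the KO last, the CPM were 8.01 (6.33 to 9.99), 4.63 (3.52 to 5.99), 6.30 (4.98 to 7.86), 2.29 (1.67 to 3.06) and 24.9 (21.99 to 28.0). WT at E18.5 overlapped P5 and was below E14.5, and only the KO lay above E14.5. The KO was 5.37-fold (4.03 to 7.25) above WT at E18.5 and 3.104-fold (2.41 to 4.05) above E14.5. A UMI was found in 9.79% of KO and 2.30% of WT myonuclei at E18.5, and in 3.23% and 0.846% after thinning.

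Cpne4 was rare in every library, and its KO level rested on few nuclei. The WT libraries had 22 (E14.5), 13 (E18.5), 7 (P5) and 25 UMIs (adult), and the KO had 97, which made 2.26, 1.04, 0.565, 1.27 and 8.87 CPM. In the WT libraries no myonucleus held over 1 UMI of it. In the KO 15 of 981 myonuclei were positive and 1 nucleus held 55 of the 97 UMIs. The KO to WT ratio of 8.54 (4.77 to 16.6) fell to 4.00 (2.07 to 8.36) without the nucleus with the most UMIs in each library. The share of positive myonuclei was 1.53% (0.858 to 2.51) in KO nuclei against 0.832% (0.444 to 1.42) in WT at E18.5, with overlapping intervals.

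**Figure D1:**
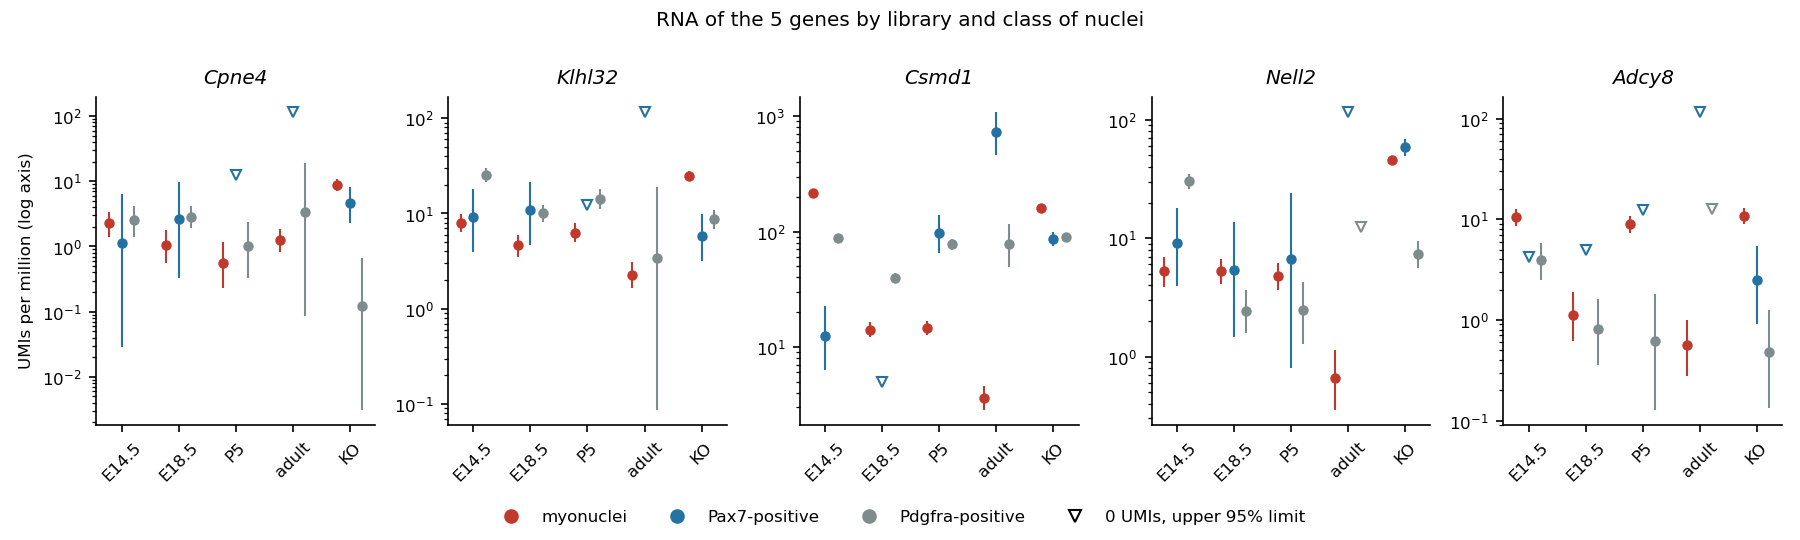
CPM (log axis) of each gene in myonuclei (red), Pax7-positive (blue) and Pdgfra-positive nuclei (grey) in each library, the WT ages first and the Cacna1s KO last. Points are summed levels, bars are exact Poisson 95% intervals, and open triangles are the upper limit where no UMI was counted. The red KO point lies above the red E18.5 point for all 5 genes, and above the red E14.5 point for Cpne4, Klhl32 and Nell2. For Adcy8 the red KO point, at 10.9, is slightly above the red E14.5 point, at 10.5, with overlapping intervals.

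Set against E14.5, Cpne4, Klhl32 and Nell2 were at least 2-fold higher in the KO, and Csmd1 and Adcy8 were within 2-fold. Over the 10944 genes with enough UMIs, 11.4% were at least 2-fold higher and 7.47% at least 2-fold lower in that comparison. With a muscle share limit of 4% in every library, which left 76 myonuclei at E14.5, the direction turned for Cpne4, at 0.849-fold, and for Csmd1, at 1.18-fold. Without the nucleus with the most UMIs in each library the Cpne4 ratio was 1.78. In WT myonuclei alone, Csmd1 and Adcy8 fell from E14.5 to E18.5 by 3.92 and 3.23 on the log2 scale, and 8.03% of 11209 genes were at least 2-fold lower at E18.5. Of those genes, 11158 had a higher ratio than Csmd1 and 11111 a higher one than Adcy8. From E18.5 to P5 Adcy8 rose 8.01-fold (4.58 to 15.1), and 57 of 11344 genes rose more, with 6.23% at least 2-fold higher and 16.7% at least 2-fold lower. From P5 to the adult the levels of Klhl32, Csmd1, Nell2 and Adcy8 fell to 0.363-fold, 0.247-fold, 0.139-fold and 0.0624-fold, and 26.0% of 10627 genes were at least 2-fold lower and 8.46% higher. Against P5 the KO was at least 2-fold higher in Cpne4, Klhl32, Csmd1 and Nell2, at 15.7-fold, 3.95-fold, 10.9-fold and 9.58-fold, but at 1.21-fold (0.929 to 1.59) for Adcy8. In that comparison 15.8% of 11139 genes were at least 2-fold higher and 7.95% lower.

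**Figure D2:**
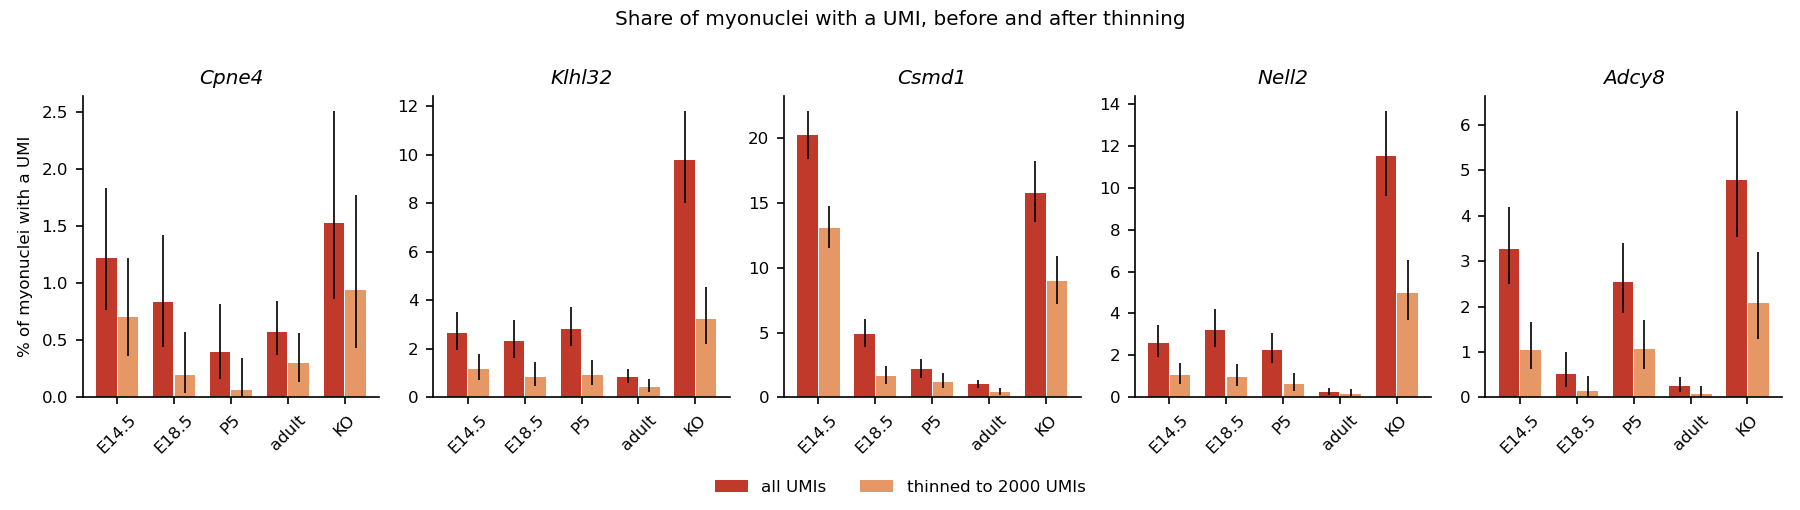
Share of myonuclei with at least 1 UMI of each gene (percent) in the 5 libraries, with all UMIs (red) and after thinning each nucleus to 2000 UMIs (orange). Bars start at 0 and carry exact binomial 95% intervals. The KO share is highest for Cpne4, where its interval overlaps that of WT E18.5, and for Klhl32, Nell2 and Adcy8, while E14.5 is highest for Csmd1 at 20.2%.

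The RNA was uneven between KO myonuclei. Of the 981, 319 (32.5%) held a UMI of at least 1 of the 5 genes, against 175 of 1563 (11.2%) in WT at E18.5 and 498 of 1809 (27.5%) at E14.5. These 3 shares are at unlike depth, with medians of 10200, 6971 and 4870 UMIs per myonucleus, and no thinned value is given for them. The 1750 Csmd1 UMIs of the KO lay in 155 nuclei, and 89 of these held 3 or more. The top nuclei held 112, 104 and 98 UMIs of Csmd1, against 15, 12 and 12 in WT at E18.5 and 85, 55 and 50 at E14.5. Nell2 reached 52 UMIs in 1 KO nucleus and 5 in WT at E18.5. Positive KO nuclei held a mean of 11.3 UMIs of Csmd1, 4.42 of Nell2, 2.83 of Klhl32 and 2.53 of Adcy8. At equal depth the mean for Csmd1 was 3.81 in the KO, 1.60 in WT at E18.5 and 3.26 at E14.5. Because UMIs came in such clusters, counting intervals are narrower than the spread between nuclei. When each nucleus was counted with at most 3 UMIs, the KO to WT ratios were 2.55 for Cpne4, 3.96 for Klhl32, 3.21 for Csmd1 and 3.96 for Nell2.

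**Figure D3:**
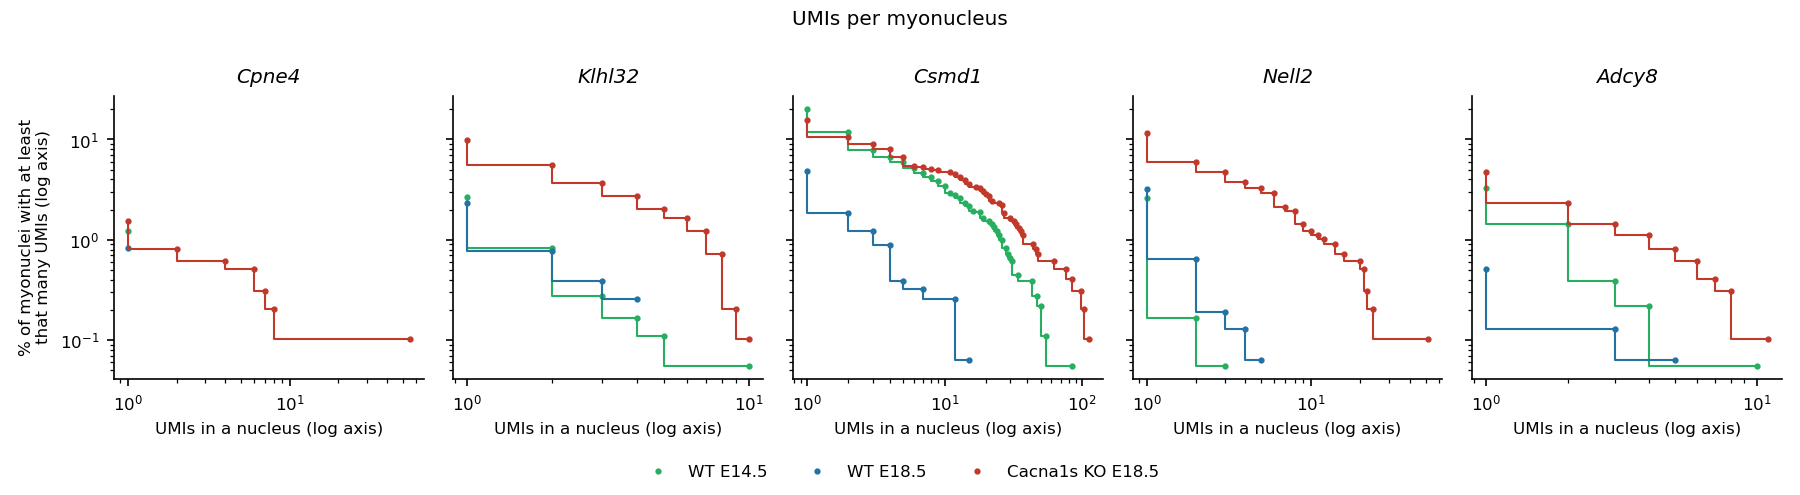
Share of myonuclei (percent, log axis) with at least the number of UMIs on the horizontal axis (log axis) for each gene at WT E14.5 (green), WT E18.5 (blue) and Cacna1s KO E18.5 (red). The KO curves reach 55 UMIs for Cpne4, 112 for Csmd1 and 52 for Nell2, and the WT E18.5 curves end at 1, 15 and 5.

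The genes overlapped in the same KO nuclei to different degrees. Klhl32 and Csmd1 were both detected in 35 KO myonuclei, where the product of their shares gave 15.2. Klhl32 and Adcy8 shared 15 nuclei against 4.599, and Csmd1 and Adcy8 shared 16 against 7.43. Nell2 shared 23 nuclei with Klhl32 against 11.1, 25 with Csmd1 against 17.9 and 5 with Adcy8 against 5.41. Cpne4 shared 6 nuclei with Csmd1 against 2.37, 4 with Klhl32 against 1.47, 4 with Adcy8 against 0.719 and 1 with Nell2 against 1.73. Deeply read nuclei detect all genes more often, and positive nuclei were deeper: the median was 14973.5 UMIs in nuclei with 3 or more Klhl32 UMIs and 10007 in those with none.

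Marker levels were set beside the genes in KO myonuclei with 3 or more UMIs of a gene. The muscle markers include Ttn, Neb, Trdn and Ryr1, by which myonuclei were called. Every myonucleus therefore carries muscle RNA, and only the differences between subsets are described. The 89 with Csmd1 had 63763 muscle marker CPM against 59711 in the 826 without it, and the 47 with Nell2 had 63874 against 59708. In the 36 with Klhl32 the level was 66433 against 59818. It was lower in the 6 nuclei with Cpne4, at 54303 against 60148, and in the 14 with Adcy8, at 54032 against 60217. Mesenchymal markers were at 3024 against 494 CPM for Cpne4 and at 1263 against 506 for Adcy8, and their part in these values was not tested. Of 7 neuron markers, 6 were detected in KO and in WT myonuclei at E18.5, with Nefl at 0 in both. Their summed level was 24.1 CPM in the KO, 12.1 in WT at E18.5 and 123 at E14.5, of which Syt1 made up 15.1, 5.11 and 58.5. The summed level was 60.6 in the KO nuclei with 3 or more Csmd1 UMIs against 19.0 in those with none, and 80.2 against 20.8 for Nell2. The part of neuron RNA in these results was not tested. Mesenchymal markers (6 of 6 detected) were lower in KO than in WT myonuclei, at 517 against 1436 CPM, and adipocyte markers (4 of 4 detected) were higher, at 56.7 against 12.7. Pparg made up 47.3 and 11.9 CPM of these adipocyte sums.

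The genes were then compared within ranges of fiber maturation. Nuclei of both E18.5 libraries were placed in ranges by the share of UMIs from Actn3, Atp2a1, Ckm, Mybpc2 and Myh4, genes of mature fast fibers, with limits at 0.0449% and 0.134%. In the KO, 384 myonuclei fell in the low, 418 in the middle and 179 in the high range. In WT these numbers were 464, 430 and 669, so the libraries filled the ranges differently, and whether maturation matched within a range was not tested. Csmd1 and Nell2 were highest in the most mature range of the KO. Csmd1 stood at 60.9, 168 and 419 CPM from low to high in the KO, and at 12.1, 17.1 and 13.6 in WT. Nell2 stood at 15.3, 44.8 and 134 in the KO and at 2.43, 7.30 and 6.20 in WT. The KO to WT ratio in the high range was 30.7 (23.9 to 40.2) for Csmd1 and 21.7 (14.7 to 32.9) for Nell2. The top KO nucleus of that range held 112 of the 684 Csmd1 UMIs, and the top one for Nell2 held 52 of 219. The intervals do not cover such clustering. Adcy8 ran the other way in the KO, at 12.7, 10.5 and 6.75 CPM, although its 11 UMIs in the high range leave wide intervals. Cpne4 and Klhl32 were highest in the middle range of the KO, at 16.9 and 38.6 CPM, and 55 of the 79 Cpne4 UMIs there came from 1 nucleus.

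**Figure D4:**
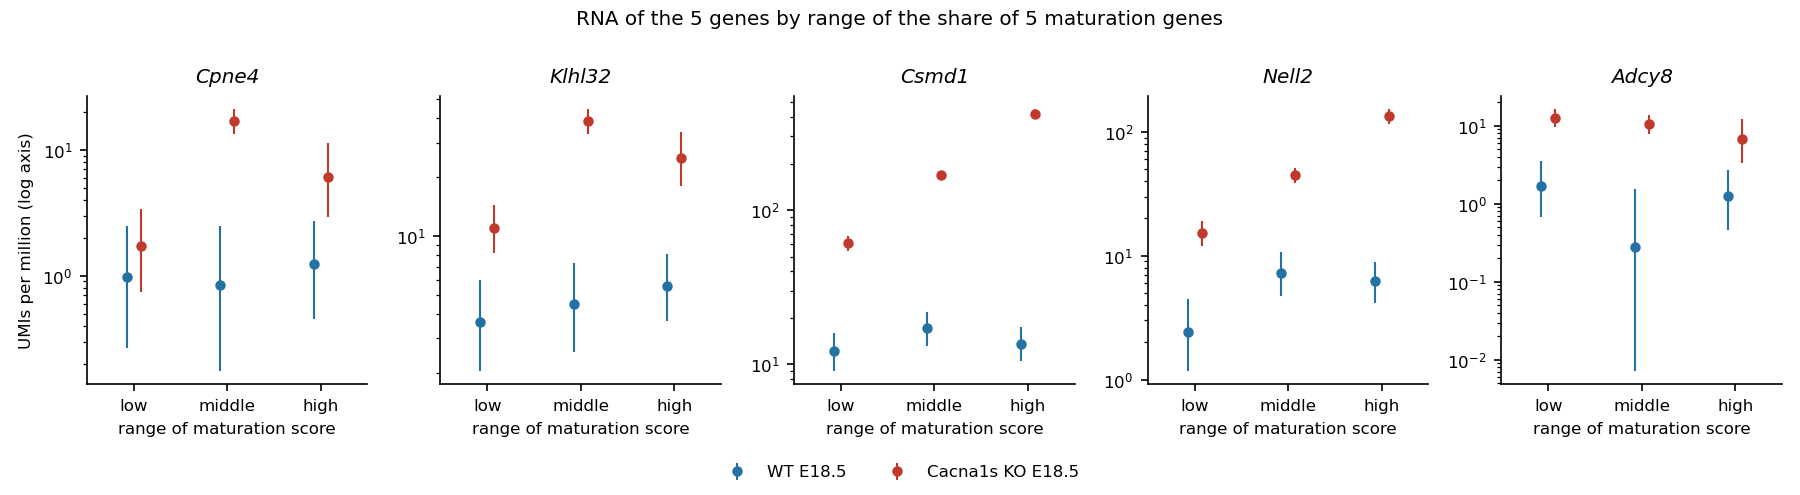
CPM (log axis) of each gene in WT E18.5 (blue) and Cacna1s KO E18.5 myonuclei (red) of the low, middle and high range of the share of 5 genes of mature fast fibers. Bars are exact Poisson 95% intervals. Csmd1 and Nell2 rise across the ranges in the KO to 419 and 134, while WT levels are at most 17.1 and 7.30.

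Myonuclei of named fiber regions also held the genes. Among nuclei with at least 3 UMIs of Myh7, the slow myosin, Csmd1 was found in 29 of 62 (46.8%) in the KO and 15 of 118 (12.7%) in WT. Adcy8 in the same nuclei was found in 9 of 62 and 1 of 118. These shares are at unlike depth, with medians of 11042 UMIs in the KO and 7115.5 in WT, and are not thinned. Per total, Csmd1 was at 319 and 33.2 CPM there, and Adcy8 at 40.7 and 0.949. Of the 76 Nell2 UMIs in the slow KO nuclei, 52 were in 1 nucleus. Among nuclei with at least 3 UMIs of Col22a1, a collagen of the myotendinous junction, Adcy8 had 24 UMIs in 49 KO nuclei and 2 in 159 WT nuclei. Nell2 had only 2 UMIs in the Col22a1 nuclei of the KO and 7 in those of WT. The Col22a1 nuclei had medians of 14855 UMIs in the KO and 9420 in WT. Per total, Adcy8 was at 32.1 and 1.25 CPM there, and Nell2 at 2.67 and 4.38. In nuclei with at least 3 UMIs of Myog, Tead4 and Klf5 together, the factors of developing fibers, Csmd1 was at 114 CPM in the KO and 13.0 in WT. In nuclei with a UMI of Maf, the factor of maturing fibers, it was at 166 and 13.1.

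Values on either side of the limit of 1.5% are given as a description. In KO nuclei whose muscle share was just inside it, from 1.5% to 2%, Csmd1 was at 167 CPM, Nell2 at 14.0 and Klhl32 at 18.7. Cpne4 was at 8.69 there and Adcy8 at 28.1, with 42 of its 119 KO UMIs. In those just outside, from 1% to 1.5%, Csmd1 was at 149.9, Nell2 at 17.5, Klhl32 at 9.89, Cpne4 at 33.5 and Adcy8 at 9.89. The 112 KO nuclei just outside held 44 UMIs of Cpne4 in 2 nuclei. At E14.5 Nell2 was at 10.0 CPM just inside and 28.2 just outside, from 19 and 34 UMIs.

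Outside the myonuclei the genes parted. In Pax7-positive nuclei Nell2 was also high in the KO, with 141 UMIs in 45 of 311 nuclei (14.47%), against 4 UMIs in 2 of 146 (1.37%) in WT at E18.5. The ratio was 10.9 (4.17 to 40.6), 4.84% of 5679 genes were at least 2-fold higher and 1.51% lower in these nuclei, and the thinned shares were 8.85% and 1.44%. At E14.5 and P5 the Pax7-positive nuclei held 8 and 2 UMIs of Nell2. Their muscle marker RNA was 6387 CPM in the KO and 5021 in WT at E18.5 against 60212 and 66287 in the myonuclei of these libraries. Because the classes were split by some of these markers, such a gap follows from the classing. Neuron markers stood at 94.0 CPM in the KO Pax7-positive nuclei (6 of 7 detected, Nefl at 0), of which Syt1 alone made up 81.5. They stood at 2.69 in WT at E18.5 (2 of 7 detected). Adipocyte markers were at 191 in the KO, of which Pparg made up 155, and at 12.1 in WT. The part of such RNA in the Nell2 and Csmd1 values was not tested. Csmd1 had 209 UMIs in 14 KO nuclei of this class, 91 of them in 1 nucleus, and none in 146 WT nuclei at E18.5. With the WT sum set to 3 counts the ratio was 21.6 (7.28 to 105). At P5 its 29 UMIs were all in 1 nucleus. In the adult, however, 10 of 25 Pax7-positive nuclei (40.0%, 21.1 to 61.3) held Csmd1. Those 25 nuclei had a median of 989 UMIs and 824 CPM of adipocyte markers (3 of 4 detected, Cidec at 539, Adipoq at 0), and the part of such RNA was not tested. Klhl32 was at 5.82 CPM in the KO and 10.8 in WT at E18.5, a ratio of 0.542 (0.212 to 1.49) from 14 and 8 UMIs. Cpne4 had 11 UMIs in the KO, 10 of them in 1 nucleus, and 2 in WT. Adcy8 had 6 in the KO and 0 in WT.

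In Pdgfra-positive nuclei Csmd1 was present at every age. Its KO level was 90.1 CPM, and the WT levels were 87.4 (E14.5), 39.5 (E18.5), 77.3 (P5) and 78.2 (adult). The KO was 2.28-fold (2.02 to 2.59) above WT at E18.5, where 3.81% of 11241 genes were at least 2-fold higher and 3.94% lower, and 142 of its 744 UMIs came from 1 nucleus. Nell2 was an embryonic gene here, at 30.3 CPM (E14.5), 2.45 (E18.5), 2.45 (P5), 0 UMIs (adult) and 7.39 (KO). Klhl32 ran from 25.4 CPM (E14.5) over 10.0 (E18.5) and 14.3 (P5) to 3.3996 (adult), and its KO level of 8.72 was 0.872-fold (0.634 to 1.19) that of WT. Adcy8 had between 0 and 23 UMIs in this class in every library. Cpne4 had 28 UMIs in WT at E18.5, 10 of them in 1 nucleus, and 1 UMI in the KO.

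Start site accessibility was then set beside the RNA. A peak within 1000 bases of the start sites was called in both E18.5 libraries for 4 of the 5 genes. In myonuclei the Cpne4 peak had 87 (E14.5), 71 (E18.5), 54 (P5), 39 (adult) and 18 ATAC counts (KO). The Klhl32 peak had 137, 171, 158, 167 and 52 in the same order. The Nell2 peak had 31, 120 and 56 counts from E14.5 to P5 and 45 in KO nuclei. The Csmd1 peak had 22, 18 and 22 and then 8. Neither had a peak in the adult library. The KO library was shallower, with 5705012 ATAC counts in myonuclei against 14651963 in WT at E18.5. Per total, the KO to WT ratios were 0.651 (0.276 to 1.38) for Cpne4, 0.781 (0.483 to 1.22) for Klhl32, 0.963 (0.565 to 1.59) for Nell2 and 1.14 (0.257 to 4.09) for Csmd1. Every interval included 1, and that of Csmd1 rests on 8 and 18 counts. Against E14.5 the Nell2 start site had a ratio of 2.71 (1.36 to 5.55) in the KO, and that of WT at E18.5 was likewise above E14.5 per total, at 8.19 against 2.91. Only Klhl32 and Nell2 reached 50 fragments over both libraries, and neither was past 2-fold. Of 15647 genes with that many, 0.614% were at least 2-fold higher and 2.83% at least 2-fold lower in the KO. Adcy8 had 2 peaks with 72 counts at its start in WT at E18.5, 1 with 89 at P5 and 2 with 202 in the adult. No start site peak was called for it at E14.5 or in the KO, the libraries with 10.5 and 10.9 CPM of its RNA. At P5, where a peak was called, its RNA was at 8.96 CPM, with an interval that overlapped both. Peaks were called in each library alone. They numbered 65624 (E14.5), 91265 (E18.5), 67013 (P5), 81124 (adult) and 61874 (KO), and no relation to the RNA is drawn.

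**Figure D5:**
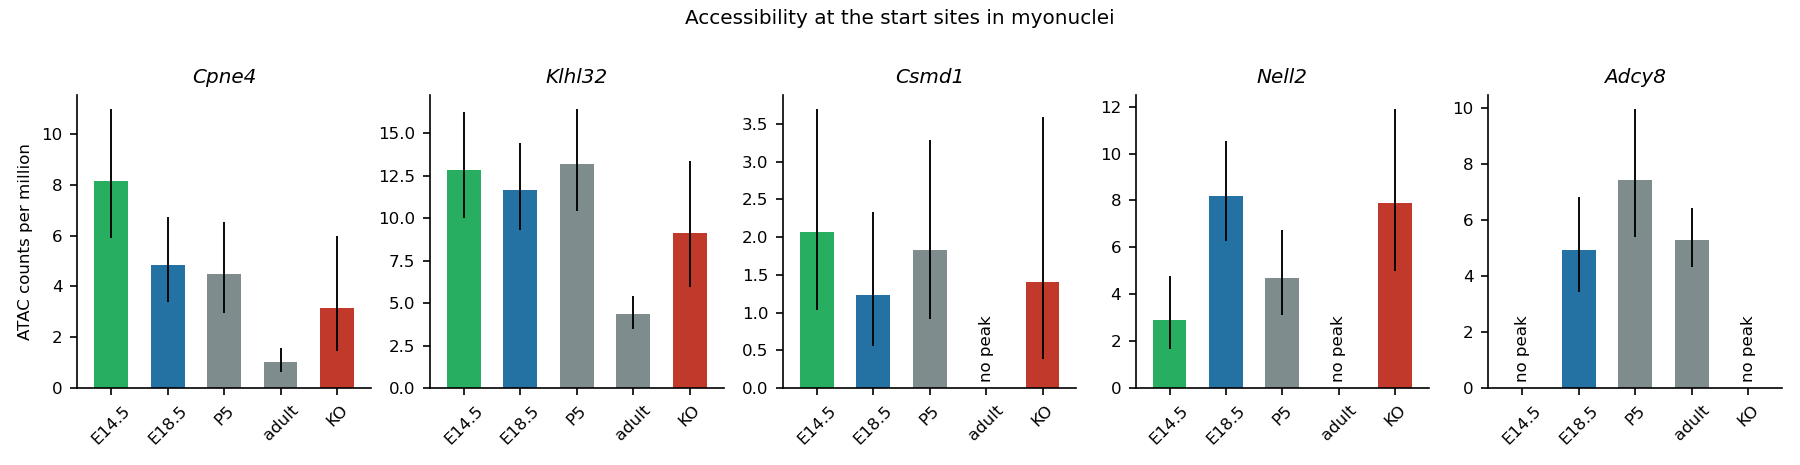
ATAC CPM in peaks within 1000 bases of the start sites of each gene in myonuclei of the 5 libraries (E14.5 green, E18.5 blue, P5 and adult grey, KO red). Bars start at 0 and carry exact Poisson 95% intervals on counts divided by 2, and libraries in which no peak was called are marked. The KO interval overlaps that of WT E18.5 for Cpne4, Klhl32, Csmd1 and Nell2.

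Accessibility across the whole of each gene was compared next, with 10 kb on each side. Over Csmd1, a gene of 1643 kb on chromosome 8, 4 peaks covering 3492 bases were called in the KO, 20 covering 18067 (E14.5), 7 covering 6059 (E18.5), 3 covering 3170 (P5) and none (adult) in WT. From E14.5 to the adult and then the KO, their ATAC CPM were 183 (172 to 195), 25.5 (21.9 to 29.4), 7.84 (5.76 to 10.4), 0 and 26.5 (20.8 to 33.2). Peaks were called in each library alone, so these sums move with the number called and with depth, and no comparison is drawn from them. All 4 KO peaks overlapped a peak called at E14.5, and 3 of them overlapped one called in WT at E18.5. No share over all KO peaks is given beside these counts, and no conclusion is drawn from them.

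The KO peaks of the 5 genes whose KO to WT interval at E18.5 lay above 1 were away from the promoters. The Csmd1 intron shown above lies in a peak at chr8:16051276-16052170 with 94 counts in KO and 161 in WT myonuclei at E18.5, a ratio of 1.499 (1.02 to 2.18) per total. Of 39996 peaks called in both libraries with at least 50 fragments, 16.0% had a ratio as high. Their median ratio was 1.09, which the interval of this Csmd1 peak includes. The Nell2 peak at chr15:95536589-95537328 lies 8.4 kb upstream of the start and overlaps no annotated gene. It had 101 counts in the KO and 132 in WT, a ratio of 1.97 (1.33 to 2.88), and 4.21% of those peaks had one as high, with 3.84% at least 2-fold higher and 2.09% lower. No E14.5 peak overlapped it. The Adcy8 peak at chr15:64686842-64687834 lies 9.75 kb past the end of the gene and had a ratio of 0.706 (0.383 to 1.23). In Klhl32, 1 of 3 KO peaks, the intronic chr4:24698577-24699453, overlapped no WT peak of any age, and it held 5 counts in KO myonuclei. No share over all KO peaks is given beside the Nell2 and Klhl32 overlaps, and no conclusion is drawn from them.

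The relatives of the 5 genes were then followed from listed families and pathways, with the same 2-fold limit and at least 100 UMIs, and the chosen genes are left out of the counts. Over all genes 3.54% were higher and 3.97% lower by that limit. Among the Nell, Robo and Slit genes other than Nell2, 5 had enough UMIs, 2 were higher in the KO and none lower. Nell1, the close relative of Nell2 and a factor of bone and cartilage, rose 5.39-fold (4.78 to 6.09), from 26.1 to 141 CPM. Unlike Nell2 it was at 481 CPM at E14.5. Slit3, a secreted Robo ligand, was 2.09-fold higher, at 95.5 against 45.8, and the receptors Robo1 and Robo2 were at 1.30-fold and 1.29-fold.

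Of the copines other than Cpne4, 5 had enough UMIs, 1 was higher and none lower. Cpne7 was 14.6-fold (7.13 to 34.7) higher, with 102 UMIs in 34 KO nuclei and 8 UMIs in WT, and it had 3 UMIs at E14.5. The top KO nucleus held 13 of them, so it was more evenly spread than Cpne4. Of the adenylyl cyclases other than Adcy8, 6 had enough UMIs and 0 passed 2-fold in either direction. Adcy5, below the limit with 71 UMIs in the KO and 25 in WT, had a ratio of 3.25 (2.03 to 5.35). Adcy2 was 1.48-fold higher, at 756 against 510 CPM, and Adcy9 was at 0.938-fold. In 36 genes of cyclic AMP signalling, 31 had enough UMIs, with 1 higher and 4 lower, beside 3.54% and 3.97% of all genes. Pde4b, a phosphodiesterase that breaks down cyclic AMP, was 3.95-fold (3.77 to 4.14) higher, from 182 to 717 CPM, and was found in 69.7% of KO myonuclei. Creb5, a transcription factor, was at 0.169-fold, the cyclic AMP sensor Rapgef4 at 0.220-fold, the immediate early gene Nr4a1 at 0.400-fold and the phosphodiesterase Pde4a at 0.404-fold of WT.

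Of the CUB and sushi genes other than Csmd1, 3 had enough UMIs, with none higher and the complement inhibitor Cd55 lower at 0.342-fold. Csmd3 did not pass the limit, at 1.13-fold with 270 UMIs in the KO and 274 in WT. Of the Kelch-like genes other than Klhl32, 27 had enough UMIs, with Klhl4 higher and Klhl6 lower, beside 3.54% and 3.97% of all genes. Klhl4 was 3.50-fold higher, but 27 of its 101 KO UMIs were in 1 nucleus, and Klhl6 was at 0.478-fold.

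The 16 genes of the denervation response all had enough UMIs, and 5 were higher and none lower, where 3.54% of all genes were higher. The study drew part of the list from these same samples, so it is not independent evidence of its direction. Fbxo32, an atrophy ubiquitin ligase, was 4.92-fold higher, the acetylcholine receptor subunit Chrna1 2.54-fold, the transcription factor Runx1 2.38-fold, the synaptic kinase Musk 2.32-fold and Foxo3 2.06-fold. These were found in 24.8% to 63.5% of KO myonuclei. Among 32 neural adhesion and synaptic genes, 27 had enough UMIs, with 6 higher and 1 lower, beside 3.54% and 3.97% of all genes. Those shares of all genes were not matched for gene length, and in the longest 5th of genes 7.99% were higher. Nrcam, Negr1, Lrrc4c, Ptprt and Cntn5 were 2.64-fold to 3.17-fold higher, and 74 of 255 KO UMIs of Cntn5 and 73 of 514 of Negr1 were in 1 nucleus. Against E14.5 the direction of that list turned, with 2 higher and 13 lower of 29 and a median log2 ratio of -0.90, where 11.4% of all genes were higher and 7.47% lower.

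The genes most like each of the 5 over the 5 myonuclear sums were found by the root mean square difference of centred log2 values (CPM plus 5) among 7269 genes of at least 20 CPM in a library. The added 5 shrinks differences at low levels, such as those of Adcy8 at WT E18.5 and in the adult. Nearest to Adcy8 were Fhit (0.18), Musk (0.18) and Cdyl2 (0.29). Musk ran 373, 138, 250, 139 and 320 CPM from E14.5 to the adult and then the KO, so it too was high at E14.5, at P5 and in the KO. Nearest to Csmd1 were Grik2 (0.53), Cnr1 (0.54) and Unc5d (0.54), at 36.8 to 73.5 CPM in the KO and 113 to 154 at E14.5. Nearest to Nell2 were Cdh20 (0.28), Luzp2 (0.35) and Chst8 (0.37), and to Klhl32 Eda2r (0.13), Chst8 (0.18) and Best3 (0.23). Cdh20 had 2.57, 4.63, 1.21 and 1.02 CPM in the WT stages and 29.2 in the KO. Nearest to Cpne4, whose levels are near the added 5, were Fig4 (0.14), Pacsin2 (0.15) and Relb (0.19).

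The 5 genes are long, from 225 kb for Adcy8 to 1643 kb for Csmd1, and all lay in the longest of 5 equal groups of the genes with enough UMIs. In that group, 7.99% of 2302 genes were at least 2-fold higher in KO than in WT myonuclei at E18.5, against 2.04% in the shortest. The median log2 ratio was 0.10 in the longest and -0.20 in the shortest group. Among genes within 2-fold of the length of each gene, the share at least 2-fold higher was 10.7% for Cpne4 and 7.26% for Klhl32. It was 19.1% for Csmd1, 10.9% for Nell2 and 7.4% for Adcy8. Intronic reads were counted, so long genes give more UMIs from a nucleus, and the part of length in the ratios was not tested.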

How the data were processed

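Nuclei of hindlimb muscle from 5 libraries were analysed. The authors deposited 1 feature matrix per library, made with Cell Ranger ARC 2.0.0 on mm10 with intronic reads included, whose gene rows are raw UMI counts and whose peak rows are raw counts of transposase cuts. Peaks were called by the authors in each library alone. From these deposited counts, nuclei were filtered and classed as given above, and each gene's UMIs were added up over a class of nuclei and scaled to that class's total. Myonuclear totals were 10941142 UMIs (KO), 9740077 (E14.5), 12518957 (E18.5), 12387258 (P5) and 19664150 (adult). Intervals are at 95%: exact Poisson for sums, Clopper-Pearson for shares and exact conditional binomial for ratios. They cover counting error only. ATAC intervals used counts divided by 2, since a fragment gives 2 cuts. A sum of 0 was set to 3 counts for a bound. Genes outside the 5 were named where they belonged to a list and passed 2-fold with 100 UMIs, where they were close relatives of the 5, or where they were among the 3 nearest patterns. The genes and lists were chosen with earlier results of these data known. No doublet caller was run, and a repeat without mixed nuclei is not reported here. Scripts used Python 3.11.15, numpy 2.4.6, pandas 2.3.3 and scipy 1.17.1, and were tested on simulated data. Other alternatives changed the filter, class limit, scaling and depth.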

Additional observations from a re-analysis of the deposited data

Results flagged for a closer look

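Cpne4 ran in opposite directions in different nuclei. In Pdgfra-positive nuclei the KO to WT ratio at E18.5 was 0.0424 (0.00104 to 0.256), from 1 UMI in the KO and 28 in WT, of which 10 were in 1 nucleus, while it was 8.54 in myonuclei. The difference between the classes was not tested.

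Nuclei in none of the 3 classes, which entered no comparison, also held UMIs of the 5 genes. There the KO to WT ratio at E18.5 was 5.97 for Cpne4, with 45 UMIs against 7 and 34 of the 45 in 1 nucleus. It was 1.66 for Csmd1 (929 against 520 UMIs), 2.38 for Nell2 (41 against 16) and 5.92 for Adcy8 (51 against 8). Klhl32 was at 0.871 (0.604 to 1.25) there, from 61 and 65 UMIs. No count over all genes was made in these nuclei.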

How the results depend on the processing

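The KO to WT ratio at E18.5 was at least 2-fold in all 55 combinations of the 5 genes and 11 alternatives, from 2.55 to 14.99. The genes were chosen by this contrast and the alternatives reuse its counts, so this is a description and not a check. The lowest value, for Cpne4 with at most 3 UMIs per nucleus, had an interval of 1.29 to 5.35. No paired analysis was possible because each group had 1 library and the labels carry no replicate numbers, and for the same reason no library could be left out. The cause of the changes below was not tested. The numbers of genes at least 2-fold higher and lower, 407 and 457 as reported, were 1111 and 906 at 20 UMIs and 2091 and 1490 with no minimum. With no filter on nuclei 651 genes were higher, Csmd1 had ratios of 6.14 to WT E18.5 and 0.652 to E14.5, the KO shares were 11.9% for Klhl32, 18.9% for Csmd1 and 14.0% for Nell2, and the WT share of Klhl32 was 3.59%. With a limit of 1%, Nell2 was 5.49-fold above E14.5. With 3%, the ratios to WT E18.5 were 4.07 for Cpne4 and 10.01 for Klhl32, those to E14.5 were 1.94 for Cpne4 and 0.680 for Csmd1, the WT share of Klhl32 was 1.53%, and the Nell2 start site ratio was 1.69. With 4% in every library, the ratios to E14.5 turned direction for Cpne4 (0.849) and Csmd1 (1.18) and were 4.87 for Klhl32 and 2.38 for Adcy8. Under it the ratios to WT E18.5 were 14.7 for Cpne4 (15 against 2 UMIs), 9.93 for Klhl32, 13.3 for Csmd1 and 5.35 for Nell2, and the WT shares were 0.268% for Cpne4 and 1.48% for Klhl32. The Csmd1 ratio to E14.5 was 0.666 with size factors, 0.692 with each nucleus scaled to its own total and 0.798 after thinning, where that of Adcy8 was 1.51. The thinned KO shares were 0.937% for Cpne4, 3.23% for Klhl32, 8.95% for Csmd1, 4.99% for Nell2 and 2.08% for Adcy8, and the thinned WT shares 0.195% for Cpne4, 0.846% for Klhl32, 1.63% for Csmd1, 0.976% for Nell2 and 0.130% for Adcy8. The next alternatives were chosen after seeing the data. Without the nucleus with the most UMIs, Cpne4 had ratios of 4.00 to WT E18.5 and 1.78 to E14.5. With at most 3 UMIs per nucleus, 270 genes were higher, the ratios to WT E18.5 were 2.55 for Cpne4, 3.96 for Klhl32, 3.21 for Csmd1 and 3.96 for Nell2, and those to E14.5 were 1.17 for Cpne4, 0.430 for Csmd1 and 3.81 for Nell2. Leaving out barcodes found in more than 1 library moved none of these values beyond its counting interval, although the Adcy8 ratio to WT E18.5 was then 14.99. That ratio was 5.88 with no filter on nuclei and 5.92 with the 3% limit.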
